A study of Mus musculus with 6 samples.

Results

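Cholesterol synthesis and its control were followed through 29 genes in whole mouse testes labelled day 9. The genes were chosen by their known place in the pathway, with earlier results of these data known, and each was found in the deposited table, 28 by symbol and Cyp51 by its Ensembl identifier, among 22274 listed genes. All 29 passed the filter on low counts. They comprise 18 enzymes of sterol synthesis, 5 genes of the sterol-sensing machinery and 6 genes of sterol transport, storage and sterol-activated transcription.

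Messenger RNA was sequenced from 3 control testis samples and 3 samples of a germ cell conditional Dcaf2 knockout, made with a floxed Dcaf2 allele and Stra8-Cre. Stra8-Cre acts in spermatogonia and their descendants, so the somatic cells of the knockout testes are not expected to recombine. The alleles and Cre status of the controls, the mouse strain and the event from which days were counted are not stated in the labels used here. Sample numbers are not tied to animals in the labels, so the p-values reflect the spread of these samples, part of which may be technical.

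Cholesterol is built from acetyl units. Acetoacetyl-CoA and HMG-CoA lead to mevalonate, mevalonate is phosphorylated and decarboxylated to isoprenoid units, these are joined to farnesyl diphosphate and squalene, and squalene is cyclised to lanosterol, which is trimmed to cholesterol. Transcription of nearly all of these enzymes is driven by SREBP2, a factor held in the endoplasmic reticulum by SCAP and the INSIG proteins while sterols are plentiful, and released by proteolysis when sterols fall. In the testis, Leydig cells use cholesterol to make androgens, Sertoli cells take up and export it, and germ cells express much of the synthetic pathway, with sterol intermediates such as meiosis-activating sterol named for their effect on oocytes.

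Libraries held 15407007 to 18372964 counts. The targeted transcript, Dtl in current nomenclature, was at 42.6, 50.3 and 77.4 CPM (counts scaled to library size) in controls 1, 2 and 3 and at 41.7, 43.8 and 51.5 CPM in knockouts 1, 2 and 3. The groups overlapped, and a whole-gene count includes any transcript without the floxed exons. The summed CPM of 17 germ cell markers was 1688, 2369 and 2297 over controls 1 to 3 and 718, 657 and 828 over knockouts 1 to 3. All 17 were lower with edgeR, where 13.9% of all tested genes were, and 16 also with any 1 library left out. Among them was the germ cell helicase gene Ddx4 (-1.31, edgeR adjusted p = 0.000602). Of 14 Sertoli cell markers, 8 were higher (57.1%, against 11.1% of all tested genes), among them the transcription factor gene Sox9 (0.44, edgeR adjusted p = 0.028). The 14 summed to 5202 to 7313 CPM over the controls and 7135 to 8112 CPM over the knockouts. With any 1 library left out, 1 of these 8 Sertoli calls (Kitl) passed in all 6 fits, and Sox9 passed in 2. Of 9 Leydig cell markers, 8 were tested and 3 were higher (37.5%, against 11.1% of all tested genes). These 3, Lhcgr, Hsd17b3 and Prlr, each passed in all 6 of those fits. The 9 summed to 942, 506 and 475 CPM over the controls and 1070 to 1112 CPM over the knockouts. Control 1 therefore stood apart from controls 2 and 3, with fewer germ cell and more Sertoli and Leydig cell transcripts, and calls that change without it are given with and without it. In whole testes, fewer cells of a type and less RNA per cell cannot be told apart.

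The promoters of 4 genes with different values are shown first, chosen after those values were seen. Mvd and Insig1 fell furthest of the 29, Hmgcs1 is an early enzyme that did not pass the test, and Ebp is the enzyme with the largest positive difference. Each stretch covers 250 bases before to 50 bases after the annotated start, from RefSeq on GRCm38.p6, in the direction of transcription: Mvd at chr8:122443373-122443672 (minus strand), Insig1 at chr5:28071162-28071461 (plus strand), Hmgcs1 at chr13:119690101-119690400 (plus strand) and Ebp at chrX:8193463-8193762 (minus strand). Capitals mark the NF-Y box, CCAAT on either strand (ATTGG on the opposite one), and the sterol response element core, TCACNCCAC on either strand, where N is any base.
Mvd: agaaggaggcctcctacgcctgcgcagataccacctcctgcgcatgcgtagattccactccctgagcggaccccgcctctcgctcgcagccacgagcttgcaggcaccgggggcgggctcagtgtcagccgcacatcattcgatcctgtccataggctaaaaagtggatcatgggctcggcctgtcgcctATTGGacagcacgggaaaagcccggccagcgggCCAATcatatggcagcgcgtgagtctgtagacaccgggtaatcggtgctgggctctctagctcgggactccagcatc
Insig1: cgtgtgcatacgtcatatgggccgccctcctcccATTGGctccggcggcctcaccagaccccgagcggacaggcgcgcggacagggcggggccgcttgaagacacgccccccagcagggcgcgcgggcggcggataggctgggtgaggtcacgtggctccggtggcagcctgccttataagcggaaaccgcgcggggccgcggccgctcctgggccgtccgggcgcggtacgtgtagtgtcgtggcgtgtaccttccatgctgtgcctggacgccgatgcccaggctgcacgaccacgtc
Hmgcs1: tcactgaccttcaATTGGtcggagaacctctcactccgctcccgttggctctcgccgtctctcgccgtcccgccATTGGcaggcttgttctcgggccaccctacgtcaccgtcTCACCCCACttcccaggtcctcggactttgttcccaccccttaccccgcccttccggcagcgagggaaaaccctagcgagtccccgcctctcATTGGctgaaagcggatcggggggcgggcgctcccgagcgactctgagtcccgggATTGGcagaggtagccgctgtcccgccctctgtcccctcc
Ebp: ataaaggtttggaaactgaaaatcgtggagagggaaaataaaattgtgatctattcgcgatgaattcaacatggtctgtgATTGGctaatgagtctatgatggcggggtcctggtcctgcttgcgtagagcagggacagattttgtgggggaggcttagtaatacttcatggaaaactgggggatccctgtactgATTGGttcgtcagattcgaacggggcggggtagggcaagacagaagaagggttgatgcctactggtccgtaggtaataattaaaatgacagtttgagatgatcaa
NF-Y is a factor that binds next to SREBP at many sterol-regulated promoters. The NF-Y box was found 2 times in the Mvd window, 1 time in that of Insig1, 4 times in that of Hmgcs1 and 2 times in that of Ebp, and the sterol response element core once, in Hmgcs1. The 2 motifs do not overlap in these windows. RefSeq promoters were matched for 24 of the 29 genes, and Fdps, Fdft1, Sqle, Scarb1 and Stard4 had no entry. At least 1 promoter with an NF-Y box was held by 19 of the 24 genes, against 41.1% of all 27025 genes with an entry. Some genes have more than 1 promoter entry. Counted per promoter, 20 of the 33 entries of these genes held the box, against 37.4% of all 32851. All 5 matched genes that fell held it in at least 1 promoter, as did 14 of the other 19. For Dhcr7, some entries lacked it. The exact sterol response element core was in 1 of the 24, against 1.44% of all genes. These are matches of letters, not measured binding.

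Of the 29 genes, 8 were lower in the knockouts and 0 were higher (edgeR quasi-likelihood test, Benjamini-Hochberg adjusted p under 0.05). The lower genes were Mvd, Idi1, Fdps, Fdft1, Sqle, Lss and Dhcr7, all synthesis enzymes, and the sterol sensor gene Insig1. These 8 genes are 27.6% of the 29, where 13.9% of 14424 tested genes were lower and 11.1% were higher at the same adjusted threshold. At an unadjusted p under 0.05 with edgeR, 12 of the 29 were lower (41.4%, against 20% of all tested genes) and 4 were higher (13.8%, against 19.1%). DESeq2 and limma-voom called 1 and 0 of the 29 higher. The median log2 fold change (knockout against control) was -0.21 over the 29 and 0.03 over all genes. Values of the 2 groups did not overlap for 11 genes that were lower (37.9%, against 22.1% of all genes) and 4 that were higher (13.8%, against 22.5%). The count of lower genes depended on the libraries: it was 12 without control 1, 8 without control 2, 3 without control 3, 3 without knockout 1, 3 without knockout 2 and 5 without knockout 3, and leaving a library out also lowers the power of the test. In the same 6 fits, in that order, 19.7%, 15.7%, 7.63%, 6.59%, 6.19% and 8.56% of all genes tested were lower, while 3 of the 29 is 10.3%. The count of higher genes was 3 without control 1, where 16.4% of all genes were higher, and 2 without control 2, where 13.7% were. Mvd, Fdps and Insig1 passed in all 6 of these fits.

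**Figure D1:**
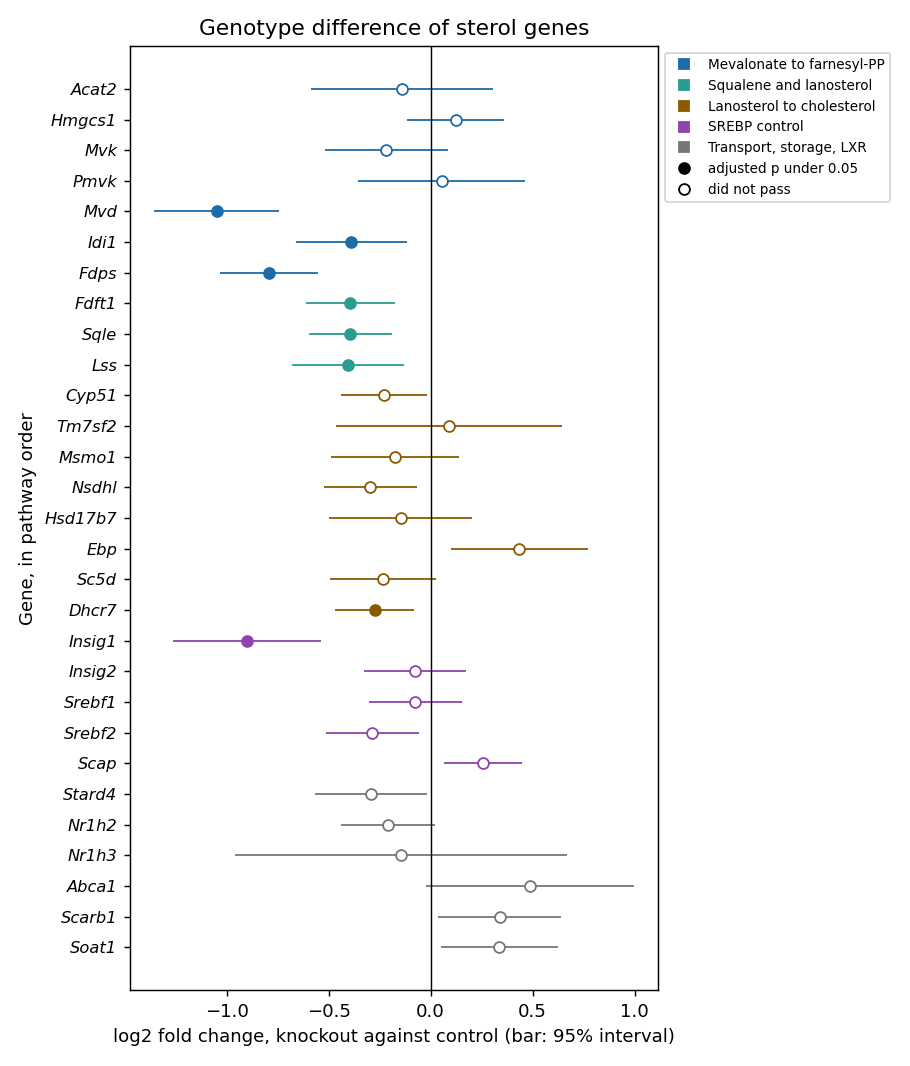
Log2 fold change of each of the 29 genes (x axis, knockout against control, 3 libraries each) in pathway order (y axis), with 95% intervals from the edgeR fit as bars. Filled points passed the test: 8 lie below 0, led by Mvd at -1.05, Insig1 at -0.90 and Fdps at -0.79, and no filled point lies above 0.

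The early, mevalonate part of the pathway split. Mvd (ENSMUSG00000006517), which encodes the decarboxylase that makes isopentenyl diphosphate, measured 33.6, 28.9 and 38.2 CPM across controls 1 to 3 and 15.5, 15.0 and 18.1 CPM across knockouts 1 to 3. Every knockout library lay below every control, and the fall was 2.07-fold (log2 fold change -1.05, SE 0.136, 95% interval -1.36 to -0.74, edgeR adjusted p = 0.00173). Fdps (ENSMUSG00000059743), which encodes the synthase that joins isoprenoid units into farnesyl diphosphate, measured 108, 89.1 and 102 CPM across controls 1 to 3 and 56.8, 54.0 and 61.8 CPM across knockouts 1 to 3. These groups were also well apart, and the fall was 1.73-fold (-0.79, SE 0.106, edgeR adjusted p = 0.00195). Idi1 (ENSMUSG00000058258), the isomerase gene between these steps, measured 85.5, 99.96 and 95.5 CPM across controls 1 to 3 and 68.0, 63.9 and 82.8 CPM across knockouts 1 to 3. The highest knockout came close to the lowest control, and the fall of 0.39 on the log2 scale (SE 0.12, edgeR adjusted p = 0.0432) lost its call without control 2, control 3, knockout 1 or knockout 2 (adjusted p = 0.0690, 0.127, 0.162 and 0.183).

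The other mevalonate genes did not pass. Hmgcs1 (ENSMUSG00000093930), whose product makes HMG-CoA, measured 304, 351 and 279 CPM across controls 1 to 3 and 338, 333 and 347 CPM across knockouts 1 to 3, within the control range (0.12, 95% interval -0.11 to 0.36, edgeR adjusted p = 0.42). Mvk, the mevalonate kinase gene, had 18.3 ± 2.12 and 15.7 ± 1.29 CPM (mean ± SD, n = 3 each, controls before knockouts here and below), a log2 difference of -0.22 with an interval of -0.52 to 0.08. Pmvk, the next kinase gene, had 11.1 ± 2.65 and 11.5 ± 0.542 CPM, and its difference of 0.06 had an interval of -0.35 to 0.46. Acat2, the cytosolic acetoacetyl-CoA thiolase gene, varied more between libraries than between groups, at 84.3, 56.0 and 59.1 CPM across controls 1 to 3 and 71.0, 64.6 and 45.2 CPM across knockouts 1 to 3 (-0.14, edgeR adjusted p = 0.631). The deposited table gives the symbol Acat2 to a second row as well, whose identifier the reference names Acat3. That row measured 13.2, 5.24 and 4.09 CPM across controls 1 to 3 and 20.5, 16.6 and 6.51 CPM across knockouts 1 to 3. The 2 genes are close copies, and how reads were split between them is not known.

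All 3 genes of the middle of the pathway passed as lower, where 13.9% of all tested genes were lower. Fdft1, Sqle and Lss, the squalene and lanosterol genes, fell by 0.39, 0.39 and 0.41 on the log2 scale. Fdft1 (ENSMUSG00000021273), squalene synthase, the first enzyme committed to sterols, measured 93.8, 79.1 and 92.1 CPM across controls 1 to 3 and 66.7, 67.3 and 67.5 CPM across knockouts 1 to 3 (SE 0.0966, edgeR adjusted p = 0.019). Sqle (ENSMUSG00000022351), the squalene epoxidase gene, measured 83.6, 86.4 and 87.9 CPM across controls 1 to 3 and 60.7, 66.6 and 69.0 CPM across knockouts 1 to 3 (SE 0.0903, edgeR adjusted p = 0.0151). In both genes the knockouts lay clear of the controls. Lss (ENSMUSG00000033105), which encodes the cyclase that closes the sterol rings, measured 33.5, 44.4 and 41.8 CPM across controls 1 to 3 and 28.4, 31.2 and 30.6 CPM across knockouts 1 to 3, with control 1 nearest to the knockouts (SE 0.121, edgeR adjusted p = 0.0384). These calls were lost in smaller sets of libraries, where the log2 differences stayed at -0.48 to -0.36 for Fdft1, -0.44 to -0.34 for Sqle and -0.54 to -0.34 for Lss. Fdft1 did not pass without control 3, knockout 1, knockout 2 or knockout 3 (edgeR adjusted p = 0.0772, 0.0858, 0.0896 and 0.0712). Sqle did not pass without control 3, knockout 1 or knockout 2 (0.0621, 0.0862 and 0.0739), and Lss passed only without control 1 among the 6 fits, with adjusted p up to 0.144 in the others.

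After lanosterol, 1 of 8 enzymes passed as lower (12.5%, against 13.9% of all tested genes). Values of the 2 groups did not overlap for 37.5% of the 8 as lower and 12.5% as higher. The shares of all tested genes were 22.1% and 22.5%. Dhcr7 (ENSMUSG00000058454), which encodes a reductase at the end of the pathway, measured 73.8, 68.6 and 72.5 CPM across controls 1 to 3 and 60.7, 57.1 and 59.9 CPM across knockouts 1 to 3. The groups were tight and apart, but the difference was small (-0.27, SE 0.086, edgeR adjusted p = 0.0453) and did not pass without control 3 or any 1 knockout library (adjusted p = 0.127, 0.133, 0.198 and 0.12). Cyp51, the lanosterol demethylase gene, measured 77.4, 79.1 and 69.7 CPM across controls 1 to 3 and 62.1, 63.0 and 67.8 CPM across knockouts 1 to 3, which did not overlap (-0.23, edgeR adjusted p = 0.0997). Nsdhl, an X-linked dehydrogenase gene of sterol demethylation, did not overlap either, at 30.5 ± 1.55 CPM among controls and 24.8 ± 1.45 CPM among knockouts (-0.30, edgeR adjusted p = 0.0607), and passed without control 1 or 2 (adjusted p = 0.0454 and 0.0374). Sc5d, the sterol desaturase gene, had 32.1 ± 3.19 and 27.2 ± 2.2 CPM, with a log2 difference of -0.23 that passed without control 1 (-0.33, edgeR adjusted p = 0.0274). Msmo1, a methylsterol oxidase gene, had 57.9 ± 9.03 and 51.2 ± 6.43 CPM, and Hsd17b7, a ketosteroid reductase gene, had 23.3 ± 4.46 and 21.0 ± 1.9 CPM. Tm7sf2, a sterol reductase gene, was low, at 4.31 ± 1.3 and 4.59 ± 0.447 CPM. In all 3 of these the groups overlapped and the 95% interval of the difference included 0.

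Ebp (ENSMUSG00000031168), the X-linked sterol isomerase gene, stood on the other side. It measured 28.3, 19.3 and 22.5 CPM across controls 1 to 3 and 31.0, 34.7 and 29.3 CPM across knockouts 1 to 3, each above every control. The log2 difference of 0.43 (SE 0.149, 95% interval 0.10 to 0.77) did not pass (edgeR adjusted p = 0.0603). It passed without control 1, the control with the highest Ebp level (0.57, edgeR adjusted p = 0.00434). Control 1 was also the control with the highest Leydig and Sertoli cell sums, given above; their part in the Ebp level was not tested.

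**Figure D2:**
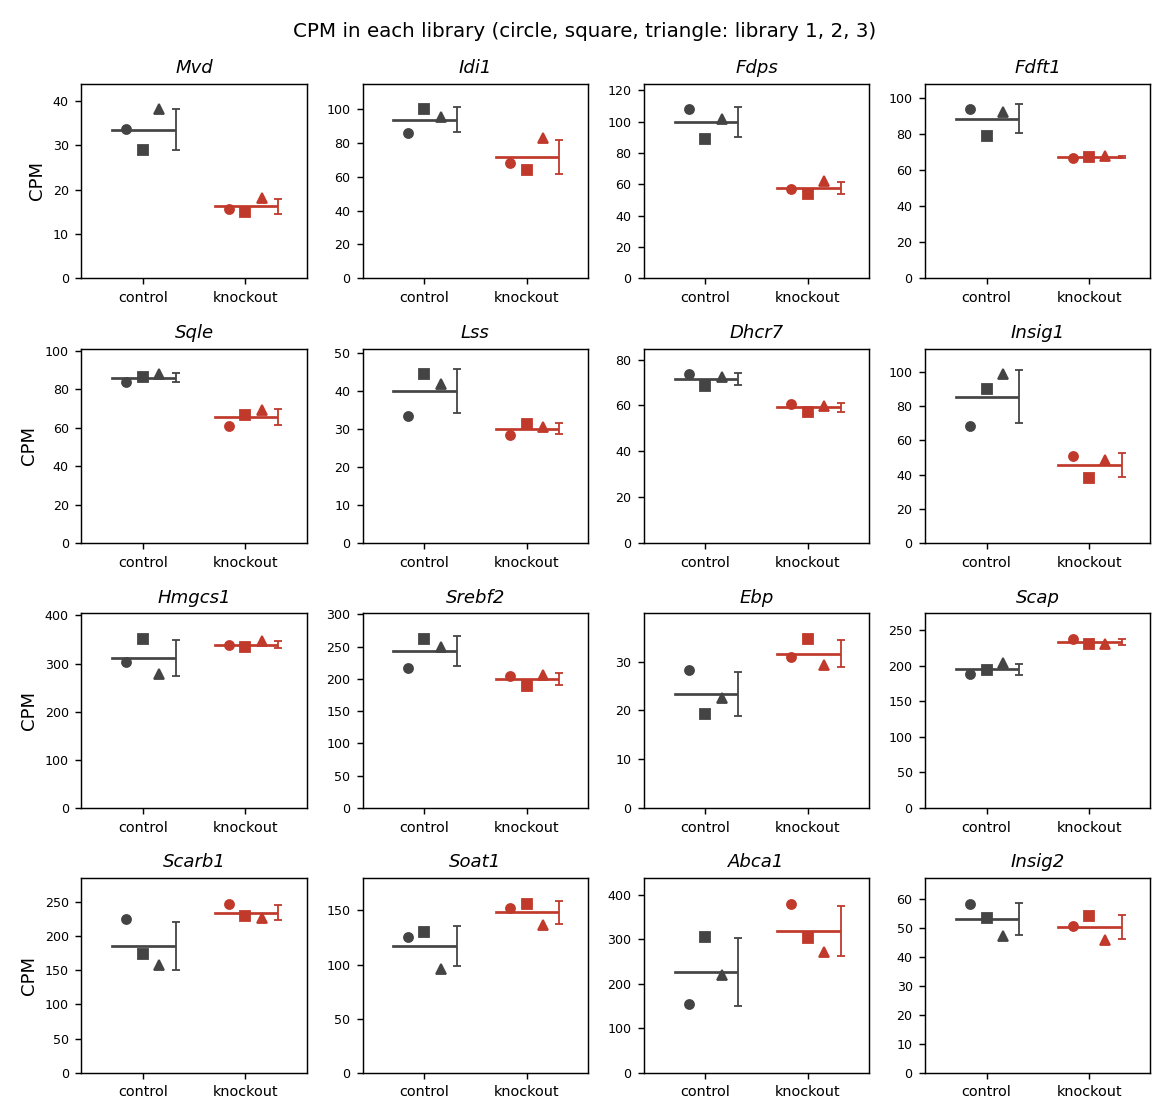
CPM (y axis, from 0) of 16 of the 29 genes in each control (grey) and knockout (red) library. Circles, squares and triangles are libraries 1, 2 and 3, horizontal lines are group means and the bars beside them are SDs (n = 3). Knockouts lie below all controls in the 8 panels of the upper 2 lines, from Mvd to Insig1, and also for Srebf2, and above all controls for Ebp, Scap, Scarb1 and Soat1.

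Among the 5 genes that control SREBP, Insig1 passed as lower (20%, against 13.9% of all tested genes) and the other 4 did not pass. Insig1 (ENSMUSG00000045294), which retains SCAP in the endoplasmic reticulum and is itself a target of SREBP, measured 68.4, 89.8 and 98.9 CPM across controls 1 to 3 and 51.2, 37.8 and 48.6 CPM across knockouts 1 to 3. It fell 1.87-fold with no overlap (-0.90, SE 0.161, 95% interval -1.27 to -0.54, edgeR adjusted p = 0.00557), and control 1 was its lowest control. Insig2, the paralogue with the same role and different regulation, measured 58.4, 53.4 and 47.2 CPM across controls 1 to 3 and 50.8, 54.3 and 45.9 CPM across knockouts 1 to 3 (-0.08, 95% interval -0.32 to 0.17). Srebf2 (ENSMUSG00000022463), which encodes SREBP2, measured 217, 262 and 250 CPM across controls 1 to 3 and 204, 189 and 206 CPM across knockouts 1 to 3. These did not overlap, and the log2 difference of -0.29 (edgeR adjusted p = 0.0661) passed without control 1 (-0.38, adjusted p = 0.00389). Srebf1, the related gene linked more to fatty acid synthesis, overlapped between the groups, at 104 ± 3.99 and 99.2 ± 10.4 CPM (-0.07, 95% interval -0.30 to 0.16). Scap, the sterol-sensing escort gene, measured 188, 195 and 204 CPM across controls 1 to 3 and 238, 231 and 232 CPM across knockouts 1 to 3, again with no overlap, and a log2 difference of 0.26 (SE 0.0846, edgeR adjusted p = 0.0549).

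Ratios of 2 genes within a library do not depend on how libraries are scaled. They were computed for 4 pairs chosen after their values were seen and are given as a description, with no test. The ratio of Insig1 to Insig2 CPM was 1.17, 1.68 and 2.09 over controls 1 to 3 and 1.01, 0.697 and 1.06 over knockouts 1 to 3. That of Fdps to Hmgcs1 was 0.355, 0.254 and 0.364 against 0.168, 0.162 and 0.178. The ratio of Mvd to Mvk was 1.70, 1.83 and 1.99 against 1.03, 1.01 and 1.05, and that of Mvd to Pmvk was 2.39, 3.17 and 3.83 against 1.31, 1.28 and 1.67. In each pair the knockout ratios lay below the control ratios. These are ratios of read counts, not of levels per length.

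None of the 6 genes of transport, storage and liver X receptor signalling passed with edgeR, where 1 was lower (16.7%, against 20% of all tested genes) and 2 were higher (33.3%, against 19.1%) at an unadjusted p under 0.05. DESeq2 and limma-voom called 0 of the 6 in either direction. Scarb1 (ENSMUSG00000037936), the lipoprotein receptor gene through which steroid-producing cells take up cholesteryl esters, measured 225, 173 and 158 CPM across controls 1 to 3 and 248, 229 and 226 CPM across knockouts 1 to 3. Control 1 lay just under the lowest knockout, and the log2 difference of 0.34 (edgeR adjusted p = 0.0934) passed without that library (0.48, adjusted p = 0.00184). Soat1, which esterifies cholesterol for storage, measured 126, 130 and 96.3 CPM across controls 1 to 3 and 152, 156 and 136 CPM across knockouts 1 to 3, without overlap. Its difference was also 0.34 (edgeR adjusted p = 0.0821), and it passed without control 1 (0.37, adjusted p = 0.0366) or control 2 (0.41, adjusted p = 0.0392). Abca1, the cholesterol efflux pump gene, ranged widely, from 155, 305 and 219 CPM in the controls to 380, 303 and 271 CPM in the knockouts (0.49, 95% interval -0.02 to 0.998, edgeR adjusted p = 0.142), and passed without control 2 (0.75, adjusted p = 0.0201).

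The remaining genes of this group leaned the other way or were low. Stard4, a cytosolic sterol carrier gene and an SREBP target, measured 39.5, 48.6 and 50.9 CPM across controls 1 to 3 and 37.7, 34.6 and 41.1 CPM across knockouts 1 to 3, with control 1 inside the knockout range (-0.29, edgeR adjusted p = 0.105). Without control 1 its log2 difference was -0.42 (edgeR adjusted p = 0.00681). Nr1h2, which encodes the widely expressed liver X receptor beta, averaged 57.0 ± 5.66 CPM among controls and 49.3 ± 2.15 CPM among knockouts (-0.21, edgeR adjusted p = 0.164), and passed without control 2 (-0.30, adjusted p = 0.0405). Nr1h3, which encodes liver X receptor alpha, was at 0.856 ± 0.142 and 0.77 ± 0.234 CPM, or 8 to 18 counts per library. Its interval of -0.96 to 0.67 spans both directions, so a difference of either sign within it is not excluded.

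Markers of other cell types were compared between the groups as well, with no test of how they relate to the sterol genes. The Leydig cell sum was higher in all 3 knockouts and in control 1 than in controls 2 and 3. Among Leydig genes, Cyp17a1, an androgen synthesis enzyme gene, had 200, 32.9 and 20.2 CPM in controls 1, 2 and 3 and 193 to 258 CPM in the knockouts, and Star, which delivers cholesterol to mitochondria, had 150, 52.8 and 25.6 CPM against 139 to 191 CPM. In both genes the groups overlapped, and neither passed (edgeR adjusted p = 0.153 for Cyp17a1 and 0.142 for Star). Of 5 fat cell markers, 2 were tested and Plin1 was higher, a call that passed in 1 of the 6 fits with a library left out (without control 1). Their sum was 14.5 to 16.1 CPM over the controls and 17.8 to 27.1 CPM over the knockouts. Of the defining markers, Lep was at 0 counts in 5 libraries and at 2 in knockout 1. Knockout 1 also had the most counts of Adipoq (20, against 0 to 2 elsewhere), Cfd (11, against 0 to 3) and Fabp4 (81, against 4 to 31). Plin1 was highest in knockout 3, at 20.7 CPM against 19.6 CPM in knockout 1. Of 8 macrophage markers 2 were higher (25%), of 5 endothelial markers 3 (60%) and of 7 peritubular markers 1 (14.3%), against 11.1% of all tested genes. Of these 6 calls, Mrc1 of the macrophage list passed with any 1 library left out. The macrophage sums were 105.5 to 141 CPM over the controls and 151 to 195 CPM over the knockouts. In the same order, endothelial sums were 178 to 206 and 246 to 279 CPM, and peritubular sums 1430 to 1508 and 1539 to 1580 CPM. Log2 differences were below 0 for 3 peritubular markers (Acta2, Cnn1 and Actg2), 1 macrophage marker and 1 endothelial marker, none of which passed. Knockouts lay below all controls for Cnn1 (-0.28, edgeR adjusted p = 0.0742). The part of these cell types in the sterol gene differences was not tested.

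Summed over the 18 synthesis enzymes, CPM was 1190, 1183 and 1128 over controls 1 to 3 and 1009, 1003 and 1044 over knockouts 1 to 3. The 2 groups did not overlap, and Hmgcs1 gave the largest share of this sum, at 279 to 351 CPM per library. The 6 transport, storage and receptor genes summed to 586 to 709 CPM over the controls and 722 to 869 CPM over the knockouts. The knockout mean was 34.7% of the control mean for the germ cell markers and 87.3% for the synthesis enzymes.

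**Figure D3:**
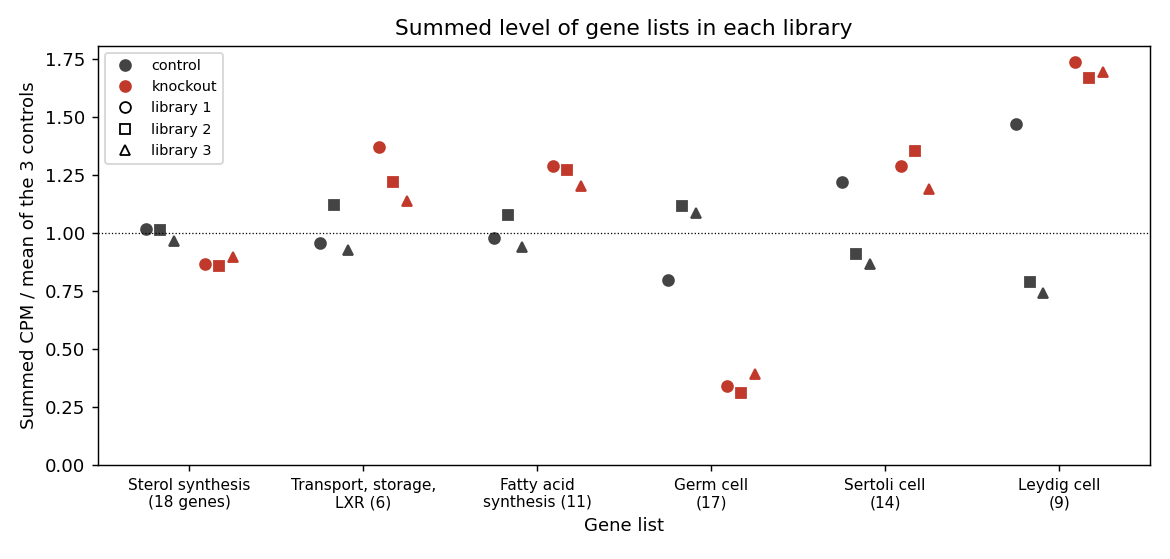
Summed CPM of 6 gene lists in each library, divided by the mean of the 3 controls (y axis, from 0, list on the x axis, controls grey, knockouts red, libraries 1 to 3 as circles, squares and triangles). The synthesis enzymes lie slightly below the controls and the germ cell markers far below them, while control 1 lies nearer to the knockouts than the other controls do for Leydig and Sertoli cell markers.

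The direction of these values is relative to the scaling. Scaled to the 17 germ cell genes, 28 of the 29 genes were higher and 0 lower, with Mvd the exception at 0.45 (edgeR adjusted p = 0.0772). In that scaling 93% of all genes were higher and their median was 1.53, while the median of the 29 was 1.297. Scaled to the 14 Sertoli cell genes, which moved the median of all genes to -0.35, 15 of the 29 were lower and 0 higher, with a median of -0.58, where 26.1% of all genes were lower. Relative to the median of all genes, 21 of the 29 lay below it with the standard scaling, 22 with germ cell scaling and 21 with Sertoli cell scaling. A change of scaling moves all genes and their median nearly together, so these counts could hardly differ and are not a check on the result.

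Genes next to the pathway gave the following counts, where 13.9% of all tested genes were lower and 11.1% higher. Of 12 tested isoprenoid and other sterol enzyme genes, 3 fell (25%) and the other 9 did not pass, with a median of -0.08. They were Lbr (-0.42, edgeR adjusted p = 0.0155), which encodes a sterol reductase of the nuclear envelope that catalyses the same reduction as the Tm7sf2 product, Dhdds (-0.33, adjusted p = 0.0341), of dolichol synthesis, and Aacs (-0.34, adjusted p = 0.0397), which activates acetoacetate for lipid synthesis. Of 16 tested sterol transport and oxysterol genes, 3 rose (18.8%) and the other 13 did not pass, with a median of 0.16. They were Gramd1b (0.60, edgeR adjusted p = 0.00499), which carries sterol from the plasma membrane to the endoplasmic reticulum, Lipa (0.48, adjusted p = 0.00576), the lysosomal lipase gene that frees cholesterol from esters, and Cyp27a1 (0.55, adjusted p = 0.0239), which makes an oxysterol. Of 5 tested genes of SREBP cleavage and INSIG turnover 1 rose (20%), Rnf145 (0.36, edgeR adjusted p = 0.0174), a ubiquitin ligase gene. Of 11 fatty acid synthesis genes, 2 rose (18.2%) and 1 fell (9.09%), with a median of 0.28. Scd2, a desaturase gene, rose by 0.57 (edgeR adjusted p = 0.00675) and Elovl6, an elongase gene, by 0.47 (adjusted p = 0.00917). Acss2, an acetyl-CoA synthetase gene, fell by 0.50 (adjusted p = 0.0121). Gramd1b, Lipa, Scd2 and Elovl6 passed with any 1 library left out. Lbr and Acss2 did not pass without control 3, knockout 1 or knockout 2, and Dhdds, Cyp27a1 and Rnf145 did not pass without control 3 or any 1 knockout. Aacs passed only without control 1 among the 6 fits, and the highest adjusted p of these 6 genes was 0.155, for Aacs.

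Levels between genes are compared on the FPKM scale, the deposited value per length of transcript. In the controls the order ran from Hmgcs1 (98.0 ± 10.4 FPKM, mean ± SD, n = 3), Fdps (83.3 ± 8.8) and Scarb1 (76.5 ± 14.9) to Hsd17b7 (5.25 ± 0.94), Tm7sf2 (3.56 ± 1.25) and Nr1h3 (0.497 ± 0.085). Spreads of the top 3 overlapped, so their order is not resolved. In the knockouts Fdps was at 45.5 ± 3.1 FPKM, while Hmgcs1 was at 102 ± 1.2 FPKM and Scarb1 at 92.3 ± 5.1 FPKM. Insig1 was above Insig2 in the controls (32.5 ± 5.9 against 22.9 ± 3.2 FPKM) and below it by mean in the knockouts (16.6 ± 2.7 against 20.1 ± 0.81 FPKM).

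**Figure D4:**
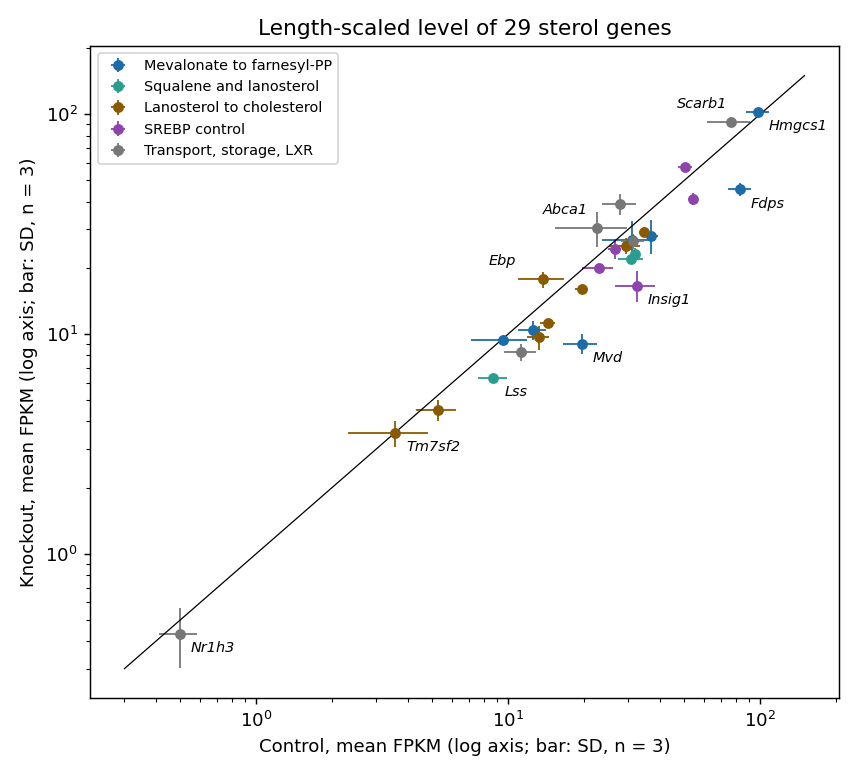
Mean FPKM in controls (x axis) and knockouts (y axis) for the 29 genes, both on log axes, with SD bars (n = 3) and a line of equal values. Fdps, Insig1, Mvd and Lss lie below the line, Ebp, Abca1 and Scarb1 above it, and Nr1h3 lies lowest at 0.497 and 0.433 FPKM.

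Some of these genes share transcribed sequence with annotated neighbours. In the GENCODE M21 annotation, exons overlap between Fdft1 and Ctsb, Cyp51 and Akap9, Srebf1 and Rai1, Lss and 4930483K19Rik, Idi1 and Gm48574, Scap and 5830462I19Rik, and Hmgcs1 and Gm48342 on the opposite strand. They overlap between Fdps and Gm43738, Tm7sf2 and Vps51, Nr1h3 and Gm13783, and Srebf1 and Mir6922 on the same strand. The labels do not say whether counting used strand, so reads from overlapping stretches cannot be told apart.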

How the data were processed

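The authors deposited 1 table that gives each gene a count and an FPKM for all 6 libraries. StringTie 1.3.1 and RSEM are named in the submitters' processing notes, with no role. Aligner, genome build and annotation are not named there or in the labels. The deposited counts were taken as estimated counts rounded by the authors, since each library has some genes (3 to 21) at a count of 0 whose FPKM is above 0. FPKM, as deposited, was used to compare levels between genes in each group. With the counts, it also gave the transcript lengths for the alternative that removes a length trend.

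A reference table named 22219 of 22274 identifiers. Genes were kept by filterByExpr (minimum count 10), which left 14424, scaled by trimmed mean of M values (TMM) and tested with edgeR 4.0.16 (quasi-likelihood, R 4.3.3, no covariates), with Benjamini-Hochberg adjustment over all tested genes at 0.05. The SE is the log2 fold change divided by the square root of F. The procedure was tested on simulated data.

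All 29 genes are named. Of the lists of genes next to the pathway, up to 3 genes with the smallest p among those that passed are named. Of the cell type lists, Ddx4, Sox9, Star and Cyp17a1 are named as reference genes. Other cell type markers are named only where a call, a direction or a low count is described. Members and lists were chosen with earlier results of these data known. Genes of the pathway outside the 29 and these lists are not reported here. Alternatives were DESeq2 1.42.0, limma-voom 3.58.1, other scalings and filters, a replicate block, fits that each leave out 1 library, and, added after seeing the data, removal of a trend on transcript length.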

Additional observations from a re-analysis of the deposited data

How the results depend on the processing

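The 8 lower and 0 higher genes became 0 and 28 with germ cell scaling and 15 lower with Sertoli cell scaling. DESeq2 gave 1 higher gene (Ebp), 3.45% of the 29, where 11.9% of all genes were higher. Removal of the length trend gave 12 lower genes (41.4%, against 19.5% of all genes). These were the 8 with Cyp51, Nsdhl, Srebf2 and Stard4. It gave 2 higher genes (Ebp and Scarb1), 6.9% against 14.3% of all genes. With any 1 library left out, 3 to 12 genes were lower and 0 to 3 higher. With germ cell scaling, where the median of all genes was 1.53, the sign turned for Acat2 (1.34), Mvk (1.27), Mvd (0.45), Idi1 (1.12), Fdps (0.69), Fdft1 (1.10), Sqle (1.12), Lss (1.13), Cyp51 (1.27), Msmo1 (1.31), Nsdhl (1.21), Hsd17b7 (1.38), Sc5d (1.29), Dhcr7 (1.23), Insig1 (0.63), Insig2 (1.43), Srebf1 (1.44), Srebf2 (1.24), Stard4 (1.23), Nr1h2 (1.297) and Nr1h3 (1.38). With Sertoli cell scaling it turned for Hmgcs1 (-0.26), Pmvk (-0.29), Tm7sf2 (-0.25), Scap (-0.13), Scarb1 (-0.012) and Soat1 (-0.035), and with total-count scaling for Pmvk (-0.013). With a library left out, the ranges that crossed 0 were -0.27 to 0.043 for Acat2, -0.075 to 0.24 for Pmvk, -0.064 to 0.34 for Tm7sf2 and -0.38 to 0.057 for Nr1h3.

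The replicate block gave 6 lower genes (20.7%, against 10.9% of all genes) and 0 higher, without Idi1 and Dhcr7. Deviations from the group means correlated at r -0.11 to 0.09 between same-numbered libraries and at -0.27 to 0.27 between differently numbered ones. With 3 libraries per group, this cannot tell whether the numbers pair the samples. Limma-voom gave 7 lower genes, without Lss, and no filter gave 7, without Dhcr7. Each is 24.1% of the 29, against 13.4% and 11% of all genes. RLE, upper-quartile and total-count scaling and DESeq2 gave 9, 9, 11 and 9, each holding the 8. These are 31%, 31%, 37.9% and 31% of the 29, against 14.7%, 14.5%, 16.8% and 15.8% of all genes lower. With total-count scaling the median of all genes moved to -0.04. Mvd, Fdps and Insig1 passed as lower in 16 of 17 alternatives, all but germ cell scaling. Nr1h3 did not enter the stricter filter. The cause of these changes was not tested.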
